A study of Mus musculus with 7 samples.

Results

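The colon surface moves salt and water through a small set of membrane proteins, and 8 genes for these proteins are described here across colonic development. They are Atp12a, which encodes the catalytic subunit of the non-gastric proton-potassium pump, Slc26a3 and Slc26a6, which encode apical anion exchangers, Slc9a2 and Slc9a3, which encode apical sodium-proton exchangers, Slc12a2 and Slc4a4, which encode basolateral cotransporters for chloride and for bicarbonate, and Cftr, which encodes the apical anion channel altered in cystic fibrosis. The genes were chosen as a list by symbol, with earlier results of these data known, and they are 8 of the 18194 genes measured. Total RNA from colon of inbred C57BL/6 mice was hybridized to 1 Affymetrix Mouse Genome 430 2.0 array at each of 7 stages, which were the 6 embryonic days between E13.5 and E18.5 and the adult mouse of 8 weeks. The mice were bred without other manipulation, no stage has a replicate, and the sources used here do not state how many animals gave the RNA of an array. On these arrays a probe set is a group of short oligonucleotides for 1 transcript, and its level is given as a log2 value, so that a difference of 1 is a 2-fold change. Of the 34958 probe sets that name a single gene, 19 belong to the 8 genes, 5 to Slc4a4, 4 to Slc26a3, 3 to Slc12a2, 2 each to Slc9a3 and Cftr and 1 each to Atp12a, Slc26a6 and Slc9a2.

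Absorptive colonocytes take up sodium chloride by pairing an apical sodium-proton exchanger with an apical chloride-bicarbonate exchanger. The sodium pump in the basolateral membrane keeps the gradient that drives the sodium-proton exchanger. Secretory cells load chloride across the basolateral membrane through the cotransporter encoded by Slc12a2 and release it through the channel encoded by Cftr, with basolateral and apical potassium channels keeping the driving voltage. The proton-potassium pump encoded by Atp12a recovers potassium and acidifies the lumen of the distal colon.

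Because each stage has 1 array, the spread of the 6 embryonic arrays around a straight line over embryonic day served as the error, and limma estimated for every gene a slope per day and how far the adult array lay from the line at E18.5. The adult array is thus assumed to vary as the embryonic arrays do. The SD given for a gene is limma's moderated one, which draws its spread around the line toward that of all genes. A course that bends away from the line widens its own error. In the account below a gene rose or fell when its slope had an adjusted p under 0.05 over all genes, and it was higher or lower in adult colon when the adjusted p was under 0.05 and the log2 difference at least 1.

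Of the 8 genes, 4 rose over the embryonic days, namely Atp12a, Slc9a2, Slc26a3 and Slc26a6, and none fell, while 9.12% of all genes rose and 10.4% fell. In adult colon 3 of the 8 were higher than the level fitted at E18.5, namely Slc26a3, Slc9a3 and Slc9a2, and none was lower, while 4.23% of all genes were higher and 3.26% lower. The median slope of the 8 genes was 0.14 per day on the log2 scale and that of all genes 0.00, and the median adult difference was 0.49 for the 8 genes and 0.03 for all genes. With E14.5, E17.5 or E18.5 left out, 1 of the 8 genes rose, Atp12a, against 5.62%, 5.3% and 4.46% of all genes. With E16.5 left out 2 did, against 7.13%, and with E15.5 left out 5 did, Slc12a2 being added, against 11.4%. With arrays centred on their median 3 did, against 8.22%, Slc26a3 no longer passing. Counted by probe set, 6 of 19 rose and none fell, against 7.24% and 9.55% of all probe sets, and 6 of 19 were higher in adult colon and none lower, against 3.94% and 4.21%.

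**Figure D1:**
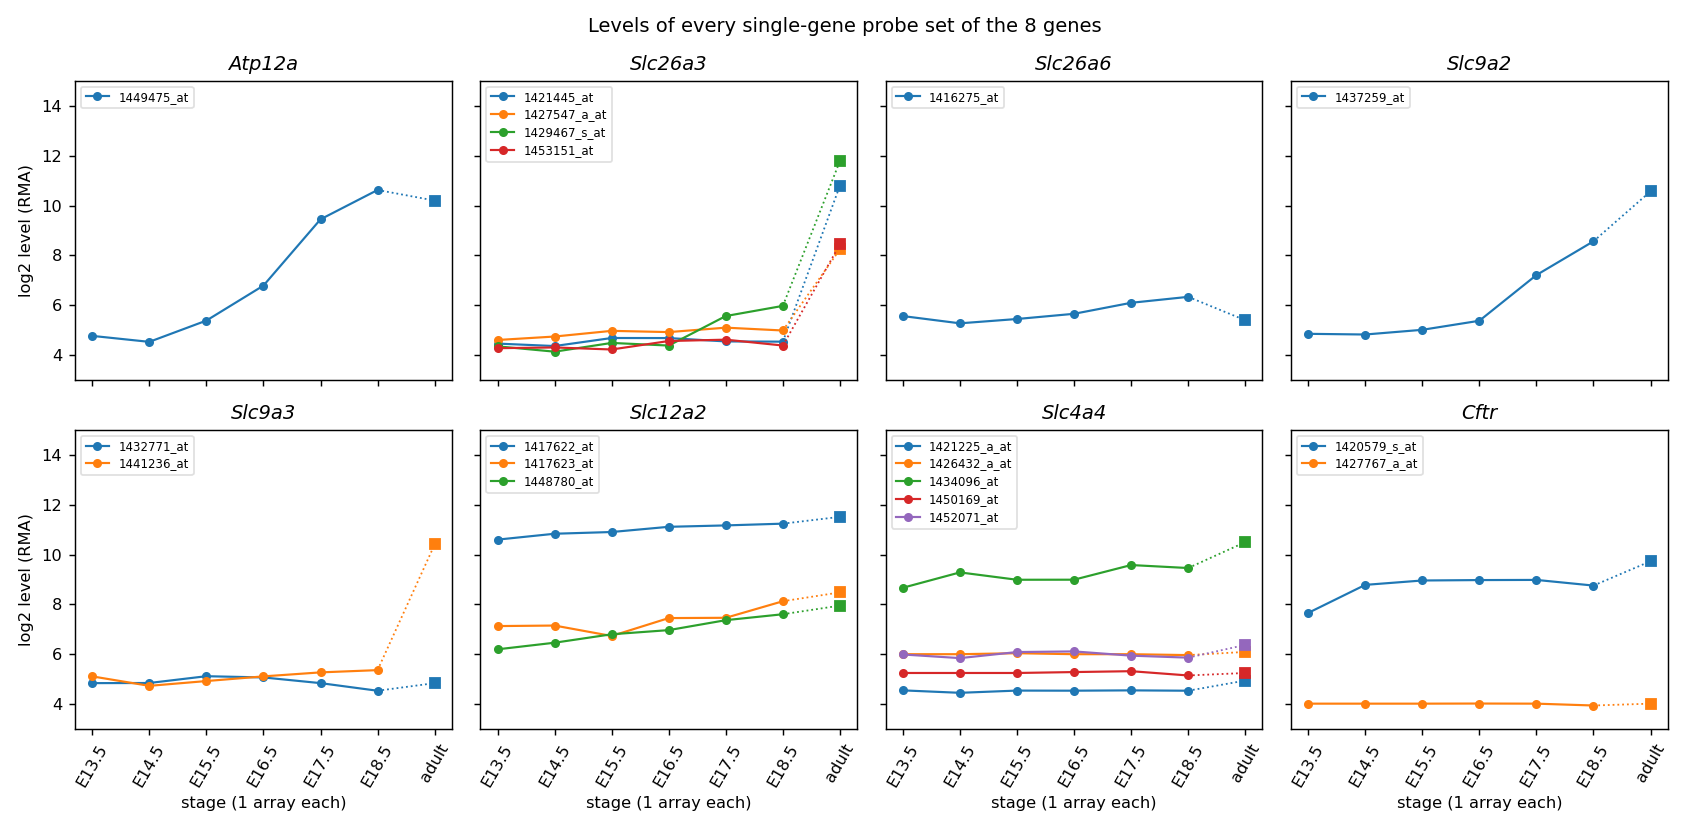
Levels of all 19 single-gene probe sets of the 8 genes, as deposited log2 values (vertical axis) at the 7 stages (horizontal axis), with 1 array per stage, circles for embryonic arrays and squares for the adult array. Atp12a and Slc9a2 climbed before birth. The 6 probe sets that passed the adult test were all 4 of Slc26a3, 1 of 2 of Slc9a3 and that of Slc9a2. Probe sets of 1 gene differed in shape for Slc9a3, Slc4a4 and Cftr.

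Slc26a3 and Slc9a3 had their main change between E18.5 and adult. Cftr had its largest embryonic step, which no test covers, between E13.5 and E14.5. The promoters of these 3 genes are shown here. Each is the 250 bases before the RefSeq start on GRCm38.p6, plus strand, and capitals mark matches to the motifs searched on both strands, which were the TATA box TATAAA, the GC box GGGCGG, the CDX site CNATAAA, the HNF4 site CAAAGTNCA, the HNF1 monomer site GTTAAT and the GATA site AGATAA.
Slc26a3 promoter, chr12:31437969-31438218: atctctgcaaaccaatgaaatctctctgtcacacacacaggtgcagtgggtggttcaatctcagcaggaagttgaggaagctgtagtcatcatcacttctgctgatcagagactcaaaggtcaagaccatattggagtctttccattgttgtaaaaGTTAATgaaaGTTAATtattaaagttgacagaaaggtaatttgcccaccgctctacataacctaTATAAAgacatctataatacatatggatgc
Slc9a3 promoter, chr13:74121163-74121412: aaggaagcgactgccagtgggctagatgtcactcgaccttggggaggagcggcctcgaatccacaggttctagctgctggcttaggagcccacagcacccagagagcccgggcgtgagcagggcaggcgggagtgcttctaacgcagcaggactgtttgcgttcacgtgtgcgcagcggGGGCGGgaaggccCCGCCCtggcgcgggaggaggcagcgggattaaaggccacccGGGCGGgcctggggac
Cftr promoter, chr6:18170437-18170686: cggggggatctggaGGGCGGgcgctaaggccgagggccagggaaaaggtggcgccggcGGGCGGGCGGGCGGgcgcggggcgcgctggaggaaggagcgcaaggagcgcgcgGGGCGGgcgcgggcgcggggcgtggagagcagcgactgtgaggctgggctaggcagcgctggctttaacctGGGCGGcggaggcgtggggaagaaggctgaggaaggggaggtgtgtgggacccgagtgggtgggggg
The Slc26a3 window is 38.8% G or C with 1 CpG, and it holds TATAAA at 30 to 25 bases before the start and GTTAAT at 94 to 89 and again at 84 to 79. The Slc9a3 window is 67.6% G or C with 19 CpG and 3 matches to GGGCGG or its reverse complement. The Cftr window is 76.4% G or C with 30 CpG and 6 matches to GGGCGG, 3 of which overlap one another, and it has no TATAAA. The promoters of Slc26a3 and Slc9a3 had no searched motif in common. Over 32851 mouse promoters of this length the median was 52.4% G or C and 6 CpG, and 12.4% held TATAAA, 32.7% GGGCGG, 9.81% CNATAAA, 1.19% CAAAGTNCA, 6.43% GTTAAT and 9.99% AGATAA. A promoter entry matched 5 of the 8 genes. That of Slc26a6 was 53.2% G or C with 1 match to GGGCGG, and Slc4a4 had 2 entries, 1 of 82% G or C with 44 CpG and 1 of 48.8% with 3. The matches describe these letters only.

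Atp12a (gene identifier 192113, chromosome 14) changed mostly before birth. This pump exchanges luminal potassium for protons and is a relative of the gastric acid pump. Its probe set, 1449475_at, stood at 4.76, 4.52, 5.38, 6.78, 9.45 and 10.62 on successive days from E13.5 to E18.5 and at 10.20 in adult colon. The level increased at each day from E15.5 to E18.5, with steps of 0.85, 1.41, 2.66 and 1.18 on the log2 scale. By array values it was 58.1-fold higher at E18.5 than at E13.5, where it stood near the array floor. The slope was 1.30 per day on the log2 scale (SE 0.17, 95% CI 0.90 to 1.70, limma adjusted p = 0.00378). This call held with each embryonic array left out in turn. The adult array lay 0.42 below E18.5, less than the moderated SD of 0.70, and differed by 0.03 from the fitted level, with a 95% CI of −2.03 to 2.10 and a limma adjusted p of 0.988. The gastric pump genes Atp4a and Atp4b, which make the acid-secreting enzyme of the stomach, passed neither test, and the embryonic levels of Atp4a lay between 4.76 and 4.87 with 4.80 in adult colon.

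Slc26a3 (gene identifier 13487, chromosome 12) had its main change between E18.5 and adult. The gene encodes DRA, the chloride-bicarbonate exchanger mutated in human congenital chloride diarrhea. The gene median was 4.40, 4.33, 4.58, 4.62, 4.85 and 4.76 from E13.5 to E18.5 and 9.62 in adult colon. The adult level was 4.79 above that fitted at E18.5 (SE 0.13, limma adjusted p = 6.09e-06), and all 4 probe sets were higher in adult colon. Probe set 1421445_at read 10.80 in adult colon and 4.53 at E18.5, a 77.2-fold difference against a level near the array floor. Probe set 1429467_s_at read 11.79 in adult colon and 5.97 at E18.5, 56.5-fold. The other 2 probe sets had smaller differences, 16.7-fold for 1453151_at (8.44 in adult colon, 4.38 at E18.5) and 9.59-fold for 1427547_a_at (8.24 in adult colon, 4.98 at E18.5).

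Before birth the Slc26a3 probe sets differed from one another. Probe set 1429467_s_at stood at 4.34, 4.13, 4.48 and 4.37 from E13.5 to E16.5 and at 5.56 and 5.97 at E17.5 and E18.5, with a slope of 0.35 per day (SE 0.08, limma adjusted p = 0.0287) that did not pass without E14.5, E17.5 or E18.5. The suffix s_at marks sets whose probes may match more than 1 transcript. None of the other 3 probe sets rose, and their slopes were 0.03, 0.05 and 0.08 per day with adjusted p of 0.633, 0.355 and 0.0747 in the same limma fit. Without E15.5 the slope of 1427547_a_at passed (0.09, adjusted p = 0.0386), and without E18.5 those of 1421445_at and 1453151_at were 0.05 and 0.09 and did not pass. The slope of the gene median was 0.10 per day (SE 0.02, limma adjusted p = 0.0341). It passed the test with no embryonic array left out or with E15.5 left out, but not with any other left out. Centring the arrays on their median gave a slope of 0.08, which did not pass. The embryonic levels of the median, 4.33 to 4.85, lay near the array floor.

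Slc26a6 (gene identifier 171429, chromosome 9) had its highest level at E18.5. It encodes an apical exchanger that carries chloride, bicarbonate and oxalate. Its probe set, 1416275_at, read 5.56, 5.27, 5.44, 5.65, 6.09 and 6.33 from E13.5 to E18.5 and 5.39 in adult colon. The gene rose by 0.19 per day (SE 0.05, 95% CI 0.08 to 0.29, limma adjusted p = 0.0305), and the level at E18.5 was 2.09-fold that at E14.5. Without E14.5, E16.5, E17.5 or E18.5 the slope no longer passed, with an adjusted p of 0.204 without E18.5. The adult array stood 0.80 below the fitted level (95% CI −1.36 to −0.24), which did not pass the test (limma adjusted p = 0.0594). That difference also fell short of the required log2 difference of 1, and it was −0.92 to −0.64 with 1 embryonic array left out. Among the embryonic arrays and the adult array, the adult level lay between those of E14.5 and E15.5, and neither gap exceeded the moderated SD of 0.19.

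Slc9a2 (gene identifier 226999, chromosome 1) rose before birth and was higher again in adult colon. It encodes the apical sodium-proton exchanger NHE2. Its probe set, 1437259_at, stood at 4.85, 4.82, 5.01 and 5.37 from E13.5 to E16.5, at 7.21 at E17.5, at 8.56 at E18.5 and at 10.57 in adult colon. The first 4 arrays differed by less than the moderated SD of 0.60, and each later stage exceeded the one before by more than it. The slope was 0.75 per day (SE 0.14, 95% CI 0.41 to 1.08, limma adjusted p = 0.0134), and the level at E18.5 was 13.1-fold that at E13.5. Adult colon was 4.03-fold above E18.5 and 2.74 above the fitted level on the log2 scale (SE 0.73, 95% CI 0.99 to 4.48, limma adjusted p = 0.0438). On the log2 scale 64.9% of the difference between adult and E13.5 was present at E18.5. Without E14.5, E17.5 or E18.5 the slope missed the threshold with adjusted p between 0.0543 and 0.0954, and without E14.5, E16.5 or E17.5 the adult difference missed it with adjusted p between 0.0523 and 0.109.

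Slc9a3 (gene identifier 105243, chromosome 13) was higher in adult colon by 1 of its 2 probe sets. It encodes NHE3, the exchanger that carries most electroneutral sodium absorption in the gut. Probe set 1441236_at read 5.11, 4.73, 4.92, 5.11, 5.27 and 5.36 from E13.5 to E18.5 and 10.41 in adult colon, a 33.1-fold difference between adult and E18.5. Its adult difference was 5.11 on the log2 scale (SE 0.19, limma adjusted p = 3.03e-05), and its slope of 0.09 per day did not pass (adjusted p = 0.182), though it did without E13.5 (0.16, adjusted p = 0.0251). Probe set 1432771_at read 4.84, 4.84, 5.11, 5.06, 4.84 and 4.53 over the embryonic days and 4.84 in adult colon, and its values at E13.5, E17.5 and adult were identical. Of all probe sets, 18.1% had 1 identical value on at least 3 arrays. The gene median, 7.62 in adult colon and 4.94 at E18.5, therefore averages a probe set that changed with one that did not pass either test. On that median the adult difference was 2.59 (SE 0.14, limma adjusted p = 7.78e-05).

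Slc12a2 (gene identifier 20496, chromosome 18) rose by 2 of its 3 probe sets, in steps of less than 2-fold. It encodes the sodium-potassium-chloride cotransporter NKCC1. Probe set 1448780_at increased at every stage, with 6.19, 6.46, 6.80, 6.97, 7.37 and 7.60 from E13.5 to E18.5 and 7.95 in adult colon, and its slope was 0.28 per day (SE 0.02, limma adjusted p = 0.00129). Probe set 1417622_at also increased at every stage, with 10.60, 10.84, 10.91, 11.12, 11.17 and 11.24 over the embryonic days and 11.52 in adult colon, and its slope was 0.13 per day (SE 0.02, limma adjusted p = 0.00971), which did not pass without E13.5 (0.11, adjusted p = 0.0685). Probe set 1417623_at read 7.13, 7.15, 6.73, 7.45, 7.46, 8.13 and 8.48 over the 7 stages and did not pass (slope 0.19, adjusted p = 0.105), though it did without E15.5 (slope 0.17). The gene median had a slope of 0.19 per day (95% CI 0.04 to 0.33, adjusted p = 0.0758) and an adult difference of 0.66 (adjusted p = 0.210), neither of which passed. Without E18.5 the slope was 0.10 and the adult difference 0.99, and without E15.5 the slope passed (adjusted p = 0.0288). In folds, E18.5 stood 2.66-fold, 1.56-fold and 2.00-fold above E13.5 by 1448780_at, 1417622_at and 1417623_at.

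Slc4a4 (gene identifier 54403, chromosome 5) passed neither test as a gene median. It encodes the sodium-bicarbonate cotransporter NBCe1. The median lay between 5.84 and 6.04 over the embryonic days and at 6.09 in adult colon, with a slope of −0.01 per day (95% CI −0.07 to 0.04) and an adult difference of 0.17 (95% CI −0.11 to 0.45). Only probe set 1434096_at ranged over more than 1 log2 unit, with 8.67, 9.28, 8.99, 8.99, 9.58 and 9.46 over the embryonic days and 10.50 in adult colon, 2.06-fold above E18.5. Its adult difference of 0.99 (SE 0.25, limma adjusted p = 0.0403) fell just short of the log2 difference of 1 required, and its slope of 0.14 did not pass (adjusted p = 0.112). Of the other 4 probe sets, 1421225_a_at read 4.94 in adult colon and 4.53 at E18.5 (difference 0.40, adjusted p = 0.0351, below the required size), and all 4 had a range over the 7 arrays between 0.13 and 0.53.

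Cftr (gene identifier 12638, chromosome 6) had its largest embryonic step first. Probe set 1420579_s_at read 7.66, 8.78, 8.96, 8.98, 8.98 and 8.75 from E13.5 to E18.5 and 9.73 in adult colon. E14.5 exceeded E13.5 by 1.13, while 0.421% of all probe sets increased at least 2-fold there, and the 5 arrays from E14.5 to E18.5 then lay within 0.23. Neither the slope of 0.17 per day (95% CI −0.03 to 0.37, adjusted p = 0.231) nor the adult difference of 0.61 (95% CI −0.42 to 1.65, adjusted p = 0.431) passed in the limma fit. Without E13.5 the slope was −0.0033, and without E18.5 the slope was 0.28 and the adult difference 0.21. Adult colon stood 1.97-fold above E18.5. The other probe set, 1427767_a_at, lay between 3.94 and 4.02 with 5 arrays at 1 value and so the gene median, 6.87 in adult colon and 6.35 at E18.5, averages a set that varied with one that hardly did.

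**Figure D2:**
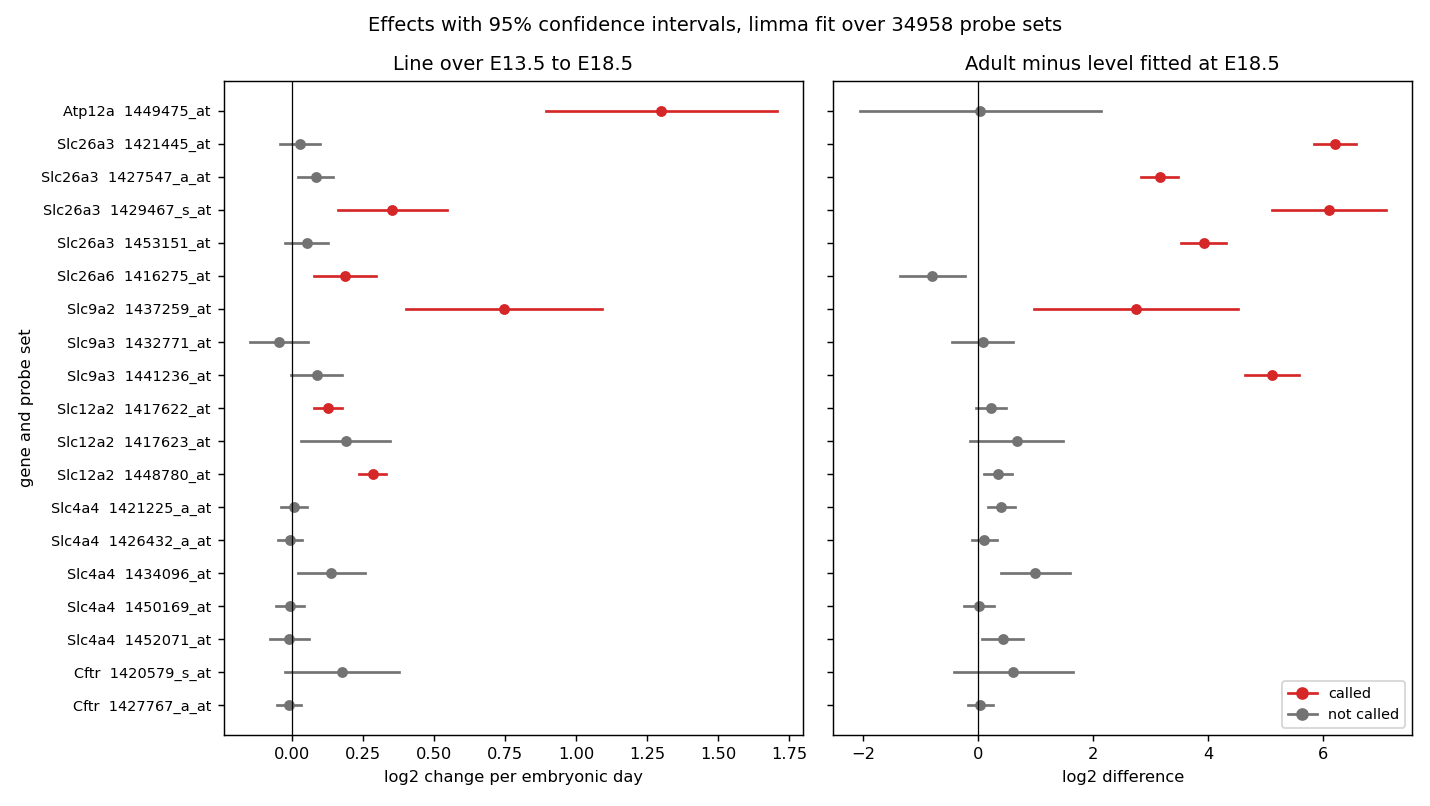
Slope per embryonic day (left) and adult level minus the level fitted at E18.5 (right), both on the log2 scale, for the 19 probe sets, as points with 95% confidence intervals from the limma fit over 34958 probe sets. Red marks the 6 probe sets that passed the slope test and the 6 that passed the adult test, and the widest adult interval is that of Atp12a, −2.06 to 2.13.

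The stages at which the genes changed at least 2-fold differed. At the gene level no such increase occurred among the 8 genes at E14.5 or E15.5, when 0.324% and 0.0934% of all genes made one. Atp12a made one at E16.5, where 1.01% of all genes increased as much, and Atp12a and Slc9a2 both made one at E17.5 (0.649% of all genes) and at E18.5 (0.368%). Between E18.5 and adult Slc26a3, Slc9a3 and Slc9a2 increased at least 2-fold, against 4.33% of all genes, and none of the 8 decreased as much, against 3.84%. On the single probe sets 1429467_s_at of Slc26a3 also stepped up by 1.19 at E17.5, where 0.526% of probe sets did.

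The tissue label was checked against cell type markers, and because the RNA came from tissue and not from sorted cells, fewer cells of a type and less RNA per cell cannot be told apart. Cdx2, the intestinal identity factor, read 9.35 in adult colon and 8.58 to 9.07 over the embryonic days. The median log2 level of 20 pan-epithelial markers such as Epcam and Cdh1 was 8.51, 8.89, 9.05, 9.46, 9.64 and 9.76 from E13.5 to E18.5 and 10.54 in adult colon, and 17 of the 20 rose. The median of 11 colonocyte markers was 12.36 in adult colon and between 5.69 and 9.34 over the embryonic days, and 7 of the 11 rose and 6 were higher in adult colon. The 11 differed in course, for Car1 and Car4 read 13.19 and 11.53 in adult colon, against 6.84 and 5.20 at E18.5, Guca2a and Lypd8 rose before birth and were not called in adult colon (13.15 and 13.21 there, 12.11 and 12.87 at E18.5), and Slc20a1 passed neither test. The median of 5 small intestinal markers was 8.53 in adult colon and between 5.41 and 9.39 over the embryonic days, with the highest level at E18.5, and 4 of them rose. Among these Fabp6 and Alpi stood at 8.53 and 8.54 in adult colon and 9.79 and 9.39 at E18.5, and neither was called lower. Apoa4 was called lower in adult colon, at 7.23 against 9.43 at E18.5. Slc5a1 stood higher in adult colon (9.05) than at E18.5 (7.63), and Lct passed neither test. All 8 goblet cell markers also rose, with a median of 5.89 at E13.5 and 11.59 at E18.5, as did 6 of 8 smooth muscle markers. The part of these markers in the embryonic rise of the 4 genes was not tested. The median of the stomach list lay between 4.86 and 4.97 and that of the kidney tubule list between 4.62 and 4.74 on all 7 arrays. Single genes lay above or below these medians, with Tff2 of the stomach list between 6.85 and 7.48 and Umod of the kidney list between 4.08 and 4.26.

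With every array centred on the pan-epithelial markers, Atp12a and Slc9a2 still rose, by 1.05 and 0.49 per day (limma adjusted p = 2.18e-05 and 0.00176). Under this centring, which lowered later arrays and under which 2.02% of all genes rose and 93% fell, Slc26a3, Slc9a3, Slc4a4 and Cftr fell, by 0.16, 0.23, 0.26 and 0.17 per day. For Cftr this fall was in 1427767_a_at (−0.26), which hardly varied on the deposited values, while the slope of 1420579_s_at, −0.08, did not pass (adjusted p = 0.257). The Slc26a6 slope was −0.067 per day and did not pass (limma adjusted p = 0.225). Of the Slc12a2 probe sets that rose on the deposited values, 1417622_at fell, with a slope of −0.13 per day, and 1448780_at had a slope of 0.03 that did not pass. Slc26a3, Slc9a2 and Slc9a3 were still higher in adult colon, by 4.11, 2.06 and 1.91, and Slc26a6 was lower, with an adult difference of −1.48 (limma adjusted p = 0.00107), while of all 18194 genes 314 were higher and 2828 lower.

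**Figure D3:**
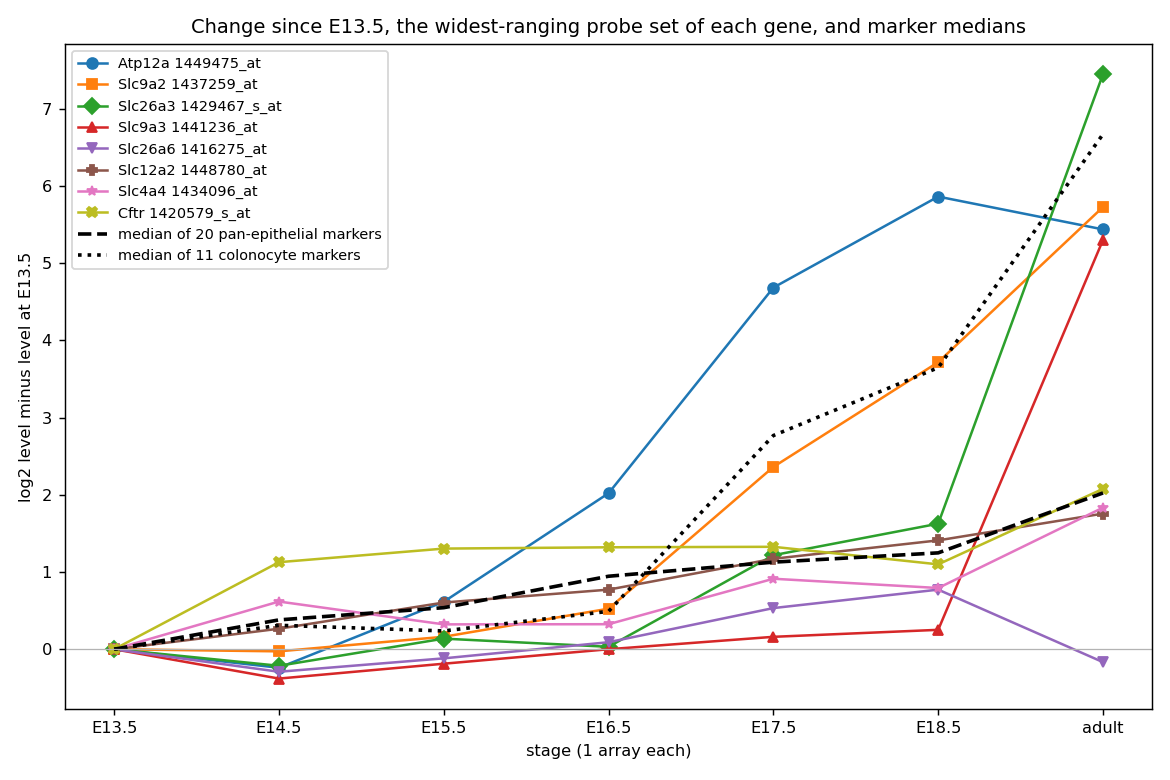
Log2 level minus the level at E13.5 (vertical axis) at the 7 stages (horizontal axis, 1 array each) for the probe set with the widest range of each gene, with the medians of 20 pan-epithelial (dashed) and 11 colonocyte markers (dotted). Atp12a reached 5.86 above E13.5 at E18.5, Slc9a2 3.72, and 1441236_at of Slc9a3 0.25, while in adult colon this Slc9a3 probe set stood 5.30 above E13.5.

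The adult array differed from the embryonic arrays in other respects that coincide with the adult differences. The median of 4 adipocyte markers was 7.61 in adult colon and 5.31 to 5.51 over the embryonic days, that of 4 pancreatic acinar markers 6.93 against 5.42 to 5.92, and that of 7 immune markers 7.07 against 5.20 to 5.27. Of 7 fibroblast markers 3 were lower in adult colon, with a median of 9.45 there and 10.82 at E18.5, and of 6 neuron markers 4 were lower, with 6.58 in adult colon and 8.01 at E18.5. The Gapdh control probe sets had a 5′ minus 3′ difference, which is more negative where RNA is shortened, of −2.41 in adult colon and −1.59 to −1.29 over the embryonic days, and that of Actb −2.66 in adult colon and −2.14 to −1.96 over the embryonic days. Their part in the adult levels of Slc26a3, Slc9a2 and Slc9a3 was not tested.

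Of 66 other electrolyte transport genes measured, from 75 listed, 12 rose over the embryonic days and 3 fell, against 9.12% and 10.4% of all genes, and 10 were higher in adult colon and none lower, against 4.23% and 3.26%. The sodium pump keeps the gradient that drives the sodium-proton exchangers described here. Of its 10 measured subunit genes, 3 rose, the beta subunit gene Atp1b1 and the regulatory subunit genes Fxyd1 and Fxyd3, none fell and 7 did not pass. Atp1b1 read 6.78, 7.04, 7.13, 9.12, 9.93 and 10.64 from E13.5 to E18.5 and 11.63 in adult colon, with a slope of 0.86 per day (SE 0.10, limma adjusted p = 0.00271), and its largest step was at E16.5, 1 day before that of Atp12a. Fxyd4, another regulatory subunit, was at 8.88 in adult colon and 5.91 at E18.5 and was the only one of the 10 higher in adult colon.

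Most relatives of the exchangers passed neither test. Of 8 other SLC26 genes only Slc26a2, a sulfate and chloride exchanger, passed, both rising (5.46 at E13.5, 7.23 at E18.5, slope 0.30, limma adjusted p = 0.0341) and higher in adult colon (9.01, adult difference 2.30, adjusted p = 0.00809). None of 5 other SLC9 genes passed either test. Of 6 scaffold and cofactor genes of NHE3, DRA and CFTR, 3 rose, the PDZ scaffolds Slc9a3r1 and Pdzd3 and the membrane linker Ezr, with slopes of 0.10, 0.34 and 0.11 per day. Chp2, a calcium-binding cofactor of sodium-proton exchangers, was at 7.35 in adult colon and 5.21 at E18.5. Of 8 other SLC4 genes only Slc4a2, a chloride-bicarbonate exchanger, passed, with 9.66 in adult colon, 8.78 at E18.5 and 7.90 at E13.5.

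Of 13 other SLC12 genes and their kinases, Slc12a8 rose by 0.69 per day, with 7.82 in adult colon, 7.80 at E18.5 and 4.69 at E13.5. The neuronal potassium-chloride cotransporter gene Slc12a5 and the kinase gene Wnk3 fell, with slopes of −0.14 and −0.36 per day, and Wnk3 read 5.47 in adult colon, 6.07 at E18.5 and 7.78 at E13.5. Slc12a7 and the kinase gene Wnk4 were higher in adult colon, by 1.09 and 1.13. Of 9 other chloride and bicarbonate channel genes, Best2 rose by 0.24 per day and was higher in adult colon, Clcn2 was higher in adult colon at 8.75 against 5.41 at E18.5, and Clcc1 fell, with a slope of −0.12 per day. Best2 encodes a bicarbonate-permeable channel and Clcn2 a chloride channel of the surface epithelium. Of 5 potassium channel genes of secretion, the calcium-activated channel gene Kcnn4 and Kcnk5 rose by 0.20 and 0.08 per day, and Kcnn4 and Kcnq1 were higher in adult colon, by 1.47 and 2.28. Of the 66 genes 5 rose when E14.5 was left out, 6 when E17.5 was and 7 when E18.5 was, against 5.62%, 5.3% and 4.46% of all genes, and 6 fell when E15.5 was, against 13.9%.

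**Figure D4:**
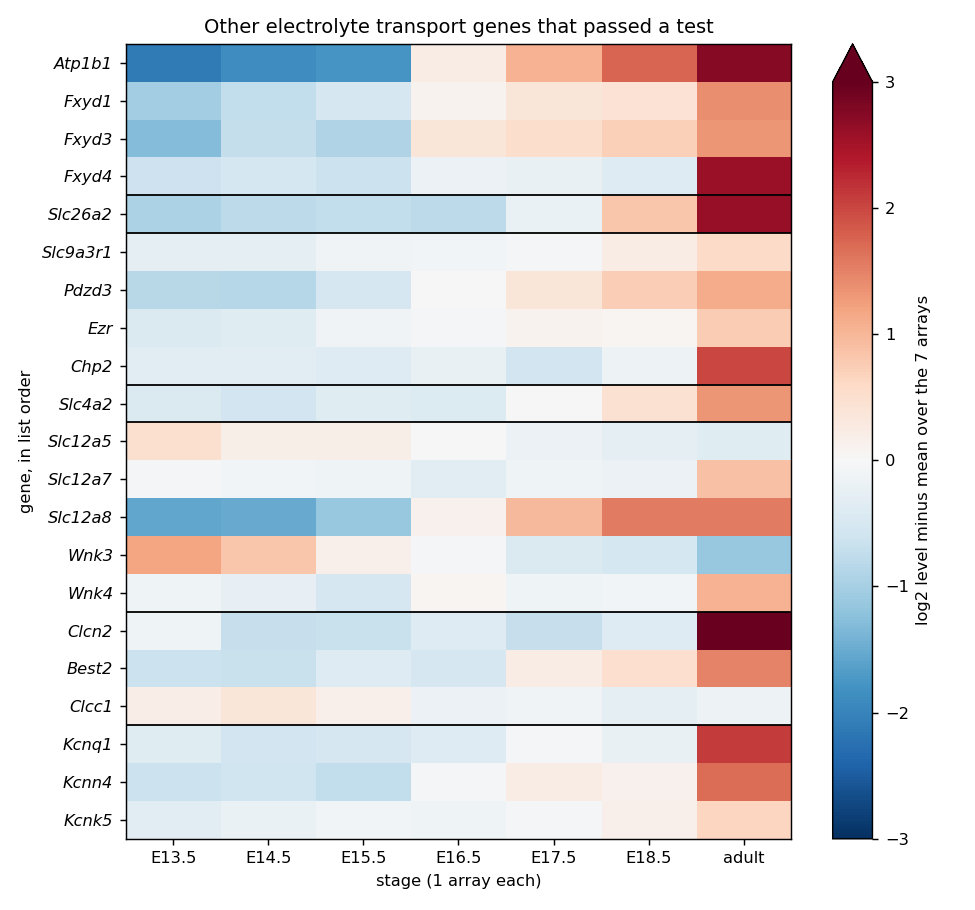
Log2 level of each of the other transport genes that passed a test, minus its mean over the 7 arrays (colour, with the scale ending at 3), at the 7 stages (horizontal axis, 1 array each), in list order with lines between lists. Atp1b1, Fxyd3 and Slc12a8 stood above their mean from E16.5 on, while Fxyd4, Chp2, Clcn2 and Kcnq1 did so on the adult array alone.

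Some genes followed the 8 closely over the 7 arrays, as measured by the root mean square difference of centred log2 levels of gene medians. For Slc9a3, Slc4a4 and Cftr that median includes probe sets that hardly varied. Their nearest genes and distances therefore describe the median and not the probe set that changed most. Those nearest to Atp12a were Nupr1 (0.382), Fam3b (0.446) and Clec2h (0.529), and all 3 increased at E16.5 and E17.5 and stood highest in adult colon. Atp12a stood highest at E18.5, but its adult level lay only 0.42 below, less than its moderated SD of 0.70. Those nearest to Slc9a2 were Dpep1 (0.287), Mep1b (0.296) and Cdhr2 (0.358), of which Dpep1 and Mep1b encode membrane peptidases and Cdhr2 an adhesion protein of microvilli. Those nearest to Slc26a3 were Reg3g (0.130), Ces2a (0.187) and Pkp1 (0.234), and Reg3g, an antimicrobial lectin, read 9.88 in adult colon and 4.79 at E18.5. Those nearest to Slc9a3 were Cd163 (0.0822), Cbs (0.0828) and Gbp2 (0.0911). For Slc26a6 they were Fibin (0.0808), Hhex (0.104) and St3gal1 (0.106), all of which stood highest at E18.5. For Slc12a2 they were Sil1 (0.0880), Myd88 (0.0883) and Ifitm3 (0.0936), for Cftr Frat2 (0.0787), Il22ra2 (0.0815) and Itpka (0.0896), and for Slc4a4 Smkr-ps (0.0144), Inpp4b (0.0188) and Pard3bos1 (0.0252). The difference scales with the change itself, so it is smaller for genes that changed little. For Slc26a3 and Slc9a3, whose medians changed little before birth, the distance rests largely on how far the 1 adult array stood above the others. Among pairs of the 8, Slc26a3 and Slc9a3 differed by 0.846, Atp12a and Slc9a2 by 1.04 and Atp12a and Slc26a3 by 2.11.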

How the data were processed

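The authors hybridized total RNA of C57BL/6 mouse colon to Affymetrix Mouse Genome 430 2.0 arrays, 1 per stage, and deposited log2 values from RMA, which subtracts background, gives the arrays a common distribution and summarizes the probes of each set. A change common to most genes is therefore hidden. Per the submitters' processing notes, affy 1.22.1 in R 2.9.2 was used.

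Probe sets took their gene from the platform annotation, with symbols updated by gene identifier through a GRCm38.p6 table, in which 18033 of 18195 identifiers matched. Sets naming several genes (932) or no gene (9211) were not used. The remaining 34958 sets were analysed singly and as the median per gene (18194 genes). In limma 3.58.1 (R 4.3.3) with lmFit and eBayes, 1 line over embryonic day described the 6 embryonic arrays and 1 further term the adult array, which left 4 residual degrees of freedom. Benjamini-Hochberg adjustment covered the whole table. Calls required an adjusted p under 0.05, and for adult colon also a log2 difference of 1 or more. The fit was tested on simulated data before use.

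The 8 genes, the other lists (66 of 75 transport genes measured) and the tests were chosen with earlier results of these data known. Named genes are the 8 genes, up to 3 per list with the largest slope and the largest adult difference among those that passed, and the 3 nearest to each of the 8 by root mean square difference of centred log2 levels, leaving out clones and Gm or Rik gene models. Markers are named as values of their lists. Alternatives were the probe set of highest mean, a filter removing the dimmest 25% of genes, arrays centred on their median or on the pan-epithelial markers, eBayes with trend and robust settings, each embryonic array left out, a slope over all 7 arrays, the last 3 embryonic days against the first 3, and the average of the last 2 embryonic days for the adult comparison. Promoter sequences are RefSeq's. Python 3.11.15, numpy 2.4.6, pandas 2.3.3 and matplotlib 3.10.9 were also used.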

Additional observations from a re-analysis of the deposited data

How the results depend on the processing

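No paired analysis was possible because each stage has 1 array. The error comes from 6 embryonic arrays around a line with 4 degrees of freedom, so bent courses have wide intervals and the adult array has no spread of its own. Levels near the floor of the array, as in 1427767_a_at of Cftr and in Slc26a3 before birth, give no information on small changes. Folds against such levels, as for Atp12a and Slc9a2 at E13.5 and Slc26a3 at E18.5, describe array values only. The alternatives for single probe sets and for steps between stages were added after seeing the data.

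Of the 8 genes 4 rose. With 1 embryonic array left out 1 to 5 did (1 without E14.5, E17.5 or E18.5), against 4.46% to 11.4% of all genes. With the last 3 embryonic days set against the first 3, 1 did. The number higher in adult colon was 2 to 3 with 1 array left out, against 3.66% to 4.34% of all genes. Of the 66 other transport genes 12 rose and 3 fell, and with 1 array left out 5 to 12 rose and 2 to 6 fell. With 1 array left out 4.46% to 11.4% of all genes rose and 4.7% to 13.9% fell. Falling transport genes numbered 5 without the dimmest 25% of genes and 6 with arrays centred on their median. Of all genes tested in these 2 settings 13.9% and 13% fell. Of the 19 probe sets 6 rose, and 3 to 8 did with 1 array left out. With the highest probe set, 1 of the 8 genes, in place of none, stepped up at least 2-fold at E14.5.

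Centring on the pan-epithelial markers lowered the adult array by 1.13 and raised E13.5 by 0.89, and it changed slope calls more than adult calls. Then 2 of the 8 genes rose and 4 fell, and 1 was lower in adult colon. Of the transport genes 3 rose, 56 fell, 5 were higher and 5 lower in adult colon. Of the probe sets 2 rose and 12 fell, and 1 was lower in adult colon. At least 2-fold steps numbered 0 at E16.5 and 5 between E18.5 and adult, 3 of them increases (Slc26a3, Slc9a2, Slc9a3) and 2 decreases (Atp12a, Slc26a6). Among genes and the probe sets that passed a test or ranged over at least 1 log2 unit, slopes turned negative for Slc26a3 (−0.16), Slc26a6 (−0.067), Slc9a3 (−0.23), Slc12a2 (−0.066) and Cftr (−0.17), and for 1417622_at (−0.13) and 1417623_at (−0.064) of Slc12a2, 1420579_s_at of Cftr (−0.079), 1421445_at (−0.23), 1427547_a_at (−0.17) and 1453151_at (−0.20) of Slc26a3, 1434096_at of Slc4a4 (−0.12) and 1441236_at of Slc9a3 (−0.17). In the same set adult differences turned negative for Atp12a (−0.65), Slc12a2 (−0.023), Slc4a4 (−0.51) and Cftr (−0.36), and for 1417622_at (−0.46), 1417623_at (−0.016) and 1448780_at (−0.34) of Slc12a2 and 1420579_s_at of Cftr (−0.071). The 6 other probe sets, which hardly varied, then had slopes of −0.30 to −0.25 and adult differences of −0.67 to −0.26. The centring subtracts the same amount from every gene of an array.

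The sign of small effects that passed no test also turned. The adult difference of Atp12a was −0.0047 with arrays centred on their median and −0.41 to 0.53 with 1 array left out. The slope of Slc4a4 was 0.14 for the highest probe set, 0.0089 over all 7 arrays and −0.025 to 0.0063 with 1 array left out. The slope of Cftr was −0.0091 to 0.14 with 1 array left out, and that of 1420579_s_at −0.0033 to 0.28, the lowest of each without E13.5. The cause was not tested. The rise of Atp12a and the adult differences of Slc26a3 and Slc9a3 kept their direction and their side of the threshold under every alternative run.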
